A study of Homo sapiens with 5 samples.

Results

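The heat shock and J-protein chaperone genes were followed in GFP-SAS, a squamous cell carcinoma line that the labels place in the tongue. Members were all genes whose symbols name an HSP70 or HSP110 protein (HSPA, HSPH1), a small heat shock protein (HSPB), a cytosolic HSP90 (HSP90A), HSP60 (HSPD1), HSP10 (HSPE1) or a J-protein of type A, B or C (DNAJA, DNAJB, DNAJC), with HSPA5, DNAJB9 and DNAJC3 left out. This gave 75 of the 18239 genes with a value, read by 197 probe sets that each name 1 gene. RefSeq types 67 of the 75 as protein coding and 8 as pseudogenes. The set is not purely cytosolic: HSPA9, HSPD1, HSPE1, DNAJA3, DNAJC15 and DNAJC19 encode mitochondrial proteins, and HSPA13, DNAJB11, DNAJC1 and DNAJC10 proteins of the endoplasmic reticulum.

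The series holds 5 arrays, 1 for each treatment: DMSO vehicle, 100 nM MLN8237 (alisertib, an inhibitor of Aurora kinase A), siNT (an siRNA without a target), and the siRNAs siAURKA-1 and siAURKA-2 at 10 nM, both directed at AURKA, the gene of that kinase. The same GFP-SAS line was used in every group, for 24 h. DMSO is the vehicle of MLN8237 and not a control for siRNA delivery. A difference of an AURKA siRNA array from DMSO thus joins siRNA delivery with the siRNA's target, and these cannot be told apart there. There is 1 array per treatment, so no test was possible and no difference below could be checked against replicates. Precision is limited by that number of arrays. Values, taken as log2 because no source states the base, are signals centred by the authors on the median of the 5 arrays for each probe set, so a value says how an array stands against the others and gives no expression level. Levels of different genes therefore cannot be ranked, and the identity of the line could not be checked from marker levels. AURKA itself, read by 1 probe set, differed from siNT by -3.36 (log2) for siAURKA-1 and by -2.64 for siAURKA-2. It was 0.49 higher with MLN8237 than with DMSO. These are bulk samples, in which fewer cells of a kind and less RNA per cell cannot be told apart.

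Molecular chaperones of the HSP70 family bind unfolded stretches of protein and release them in a cycle driven by ATP. J-proteins deliver clients and stimulate the ATPase, HSP110 proteins exchange the nucleotide, HSP90 acts later on signalling proteins such as kinases and steroid receptors, and small heat shock proteins hold unfolding proteins without ATP. The transcription factor HSF1 raises many of these genes during protein stress through heat shock elements in their promoters, and many tumour cells are known to depend on chaperones without any heat.

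Few members differed by as much as 1.5-fold in any comparison, but their values spread more over the arrays than those of genes at large. The distance between a gene's highest and lowest array had a median of 0.33 (log2) over the members and 0.22 over all genes, and in 36 of the 75 members the highest array was less than 25% above the lowest (48% of members, against 64.6% of all genes). No filter on low values could be used, so the background may hold genes with little signal. The part of signal level in the wider spread was not tested. At a size of 1.5-fold, 4 members were past it between siAURKA-1 and siNT (2 higher, 2 lower), where 7.05% of all genes were past it (2.57% higher and 4.48% lower). Between siAURKA-2 and siNT there were 5 (2 higher, 3 lower) against 5.08% of all genes (1.96% higher and 3.11% lower). MLN8237 against DMSO gave 0 members against 0.482% of all genes (0.367% higher and 0.115% lower). The controls siNT and DMSO differed past this size for 2 members, both lower with siNT, against 2.08% of all genes (1.53% higher and 0.554% lower). Between the siRNAs 6 members were past it (3 higher and 3 lower with siAURKA-1), against 7.66% of all genes (3.68% higher and 3.99% lower). As shares of the 75 members these counts are 5.33%, 6.67%, 0%, 2.67% and 8%, all within a few percentage points of the background at this size. At a smaller step of 25% the members' shares were above it in each comparison, but only slightly for MLN8237 minus DMSO and between the AURKA siRNAs. These comparisons share arrays, so they are not separate results. Past this step were 21 members (28%) against 17.5% of all genes for siAURKA-1 minus siNT, and 15 (20%) against 14.6% for siAURKA-2 minus siNT. MLN8237 minus DMSO gave 3 (4%) against 3.02%, siNT minus DMSO 10 (13.3%) against 8.54%, and the AURKA siRNAs between them 15 (20%) against 18.1%. At 2-fold 1 member was left, DNAJC13 for siAURKA-2 minus siNT, where 1.26% of all genes were past it. In the other 4 comparisons, in the order above, 0 members were past 2-fold against 1.96%, 0.0658%, 0.296% and 2.16% of all genes. The AURKA siRNAs lay on opposite sides of siNT and at least 1.5-fold apart for 3 of the 75 members (DNAJB14, HSPA1B and HSPA2) and for 4.77% of all genes. The median difference of the members was -0.02 for either AURKA siRNA minus siNT, 0.00 for MLN8237 minus DMSO and for siNT minus DMSO, and 0.03 between the AURKA siRNAs, while the median of all genes was 0.00 in each.

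**Figure D1:**
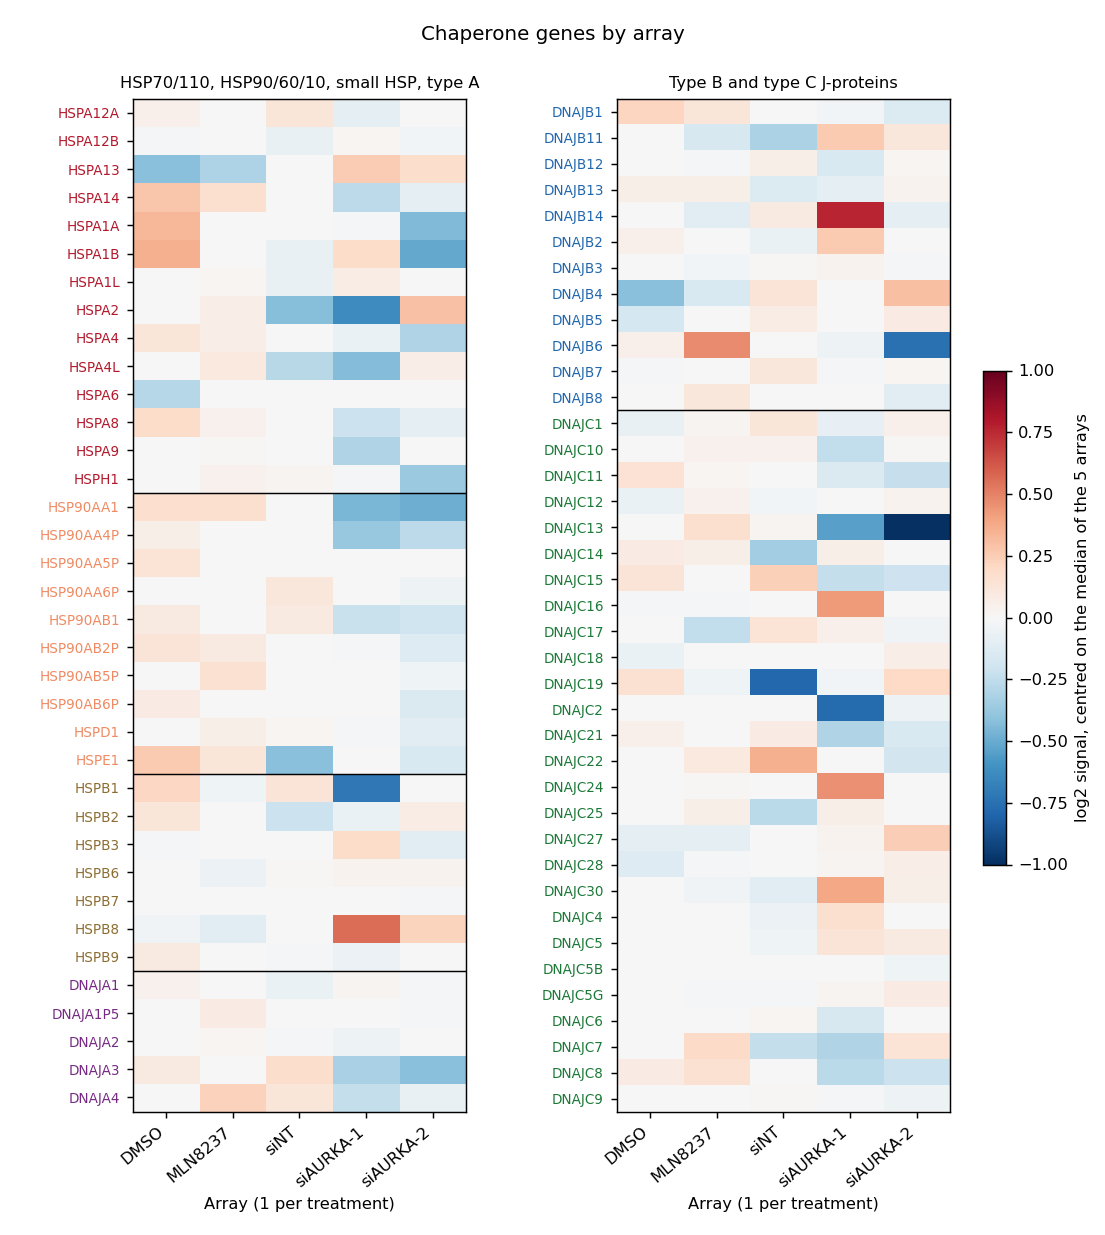
Centred log2 signal (colour, saturating at 1 in either direction) of the 75 members in rows, grouped and coloured by family, on the 5 arrays in columns. Single strong cells stand out against mostly pale rows: DNAJC13 and DNAJB6 with siAURKA-2, HSPB1, DNAJC2 and DNAJB14 with siAURKA-1, and DNAJC19 with siNT.

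**Figure D2:**
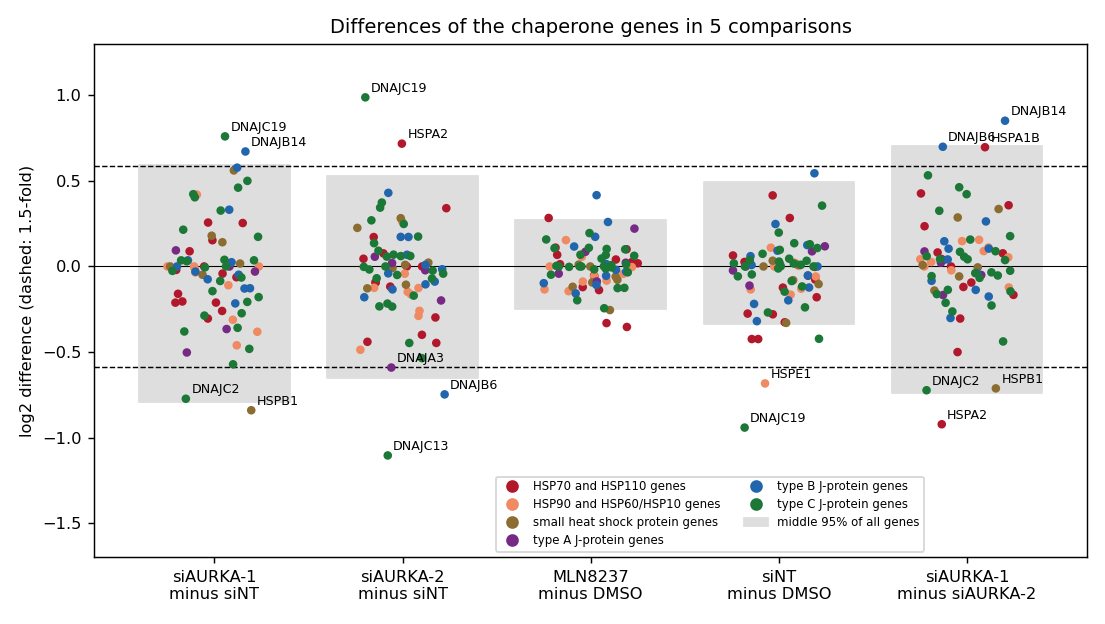
Log2 difference of each member (points, coloured by family, spread sideways only for legibility) in the 5 comparisons, with dashed lines at 1.5-fold and grey bands holding the middle 95% of all genes. The named members lie past 1.5-fold, and 0 members do so for MLN8237 minus DMSO.

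Among the HSP70 genes, the stress-inducible pair HSPA1A and HSPA1B was highest with DMSO and lowest with siAURKA-2. HSPA1A stood at 0.33 with DMSO, 0.00 with MLN8237, 0.00 with siNT, and -0.02 and -0.44 with siAURKA-1 and siAURKA-2. HSPA1B gave 0.35, 0.00, -0.07, 0.19 and -0.51 in the same order. Thus siAURKA-2 lay -0.77 (1.71-fold lower) below DMSO for HSPA1A and -0.86 (1.82-fold lower) for HSPA1B, and below siNT by less than 1.5-fold (-0.45 and -0.44). All 3 probe sets assigned to 1 of these genes carry a suffix marking probes that can cross-hybridise. A further pair of probe sets names both genes and gave -0.36 and -0.45 for siAURKA-2 minus siNT, so the near-identical paralogs may share signal.

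HSPA2 and HSPA4L stood lowest with siAURKA-1. HSPA2, an HSP70 best known from testis, stood at 0.00 with DMSO, 0.07 with MLN8237, -0.42 with siNT, and -0.63 and 0.29 with siAURKA-1 and siAURKA-2. It was 1.64-fold higher with siAURKA-2 than with siNT (0.72) but only 0.29 above DMSO, and the siAURKA-1 array lay 1.89-fold below the siAURKA-2 array (-0.92). HSPA4L, of the HSP110 type, was likewise below 0 with siNT and lowest with siAURKA-1 (0.00, 0.10, -0.28, -0.44 and 0.07 in the same order of arrays), and its 3 probe sets all lay lowest with siAURKA-1. HSPH1, the main cytosolic HSP110 and a nucleotide exchange factor, was level on 4 arrays (-0.02 to 0.04) and at -0.37 with siAURKA-2, where each of its 8 probe sets was below siNT (differences of -0.25 to -0.76). HSPA4, its close relative, gave -0.30 there against 0.00 with siNT. Of the 4 probe sets of HSPA4, 3 shared this direction and another lay 0.24 above siNT.

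The constitutive HSC70 gene HSPA8 was at 0.18 with DMSO, 0.04 with MLN8237, 0.00 with siNT, and -0.21 and -0.09 with siAURKA-1 and siAURKA-2, with 7 probe sets that did not all share a direction. HSPA9, the mitochondrial HSP70, was lower only on the siAURKA-1 array (-0.30, with the other 4 arrays between 0.00 and 0.02), and all 5 of its probe sets were lowest there. HSPA13, a microsomal HSP70 relative, ran the other way from most of the family. It stood at -0.42 with DMSO, -0.31 with MLN8237, 0.00 with siNT, and 0.25 and 0.17 with siAURKA-1 and siAURKA-2, so that both siRNAs against AURKA lay over 1.5-fold above DMSO (0.67 and 0.59) and the siNT array 0.42 above it. HSPA6, a strictly inducible HSP70 read by 1 probe set, gave exactly the same value on 4 arrays and -0.28 on the DMSO array. A probe set shared with HSPA7 did not show this, standing at 0.00 with DMSO and between -0.02 and 0.01 on the other arrays.

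Of the 10 genes of HSP90, HSP60 and HSP10, 0 were 1.5-fold from siNT with either AURKA siRNA, and HSP90AA1 was 1.5-fold below DMSO with both. HSP90AA1, the stress-responsive cytosolic HSP90, stood at 0.16 with DMSO, 0.16 with MLN8237, 0.00 with siNT, and -0.46 and -0.49 with siAURKA-1 and siAURKA-2. Neither difference from siNT reached 1.5-fold (-0.46 and -0.49), while both differences from DMSO did (-0.63 and -0.65, or 1.54-fold and 1.57-fold lower). Its 2 probe sets shared these directions, but only 1 was itself past 1.5-fold against DMSO (-0.68 with siAURKA-1 and -0.88 with siAURKA-2). The other gave -0.58 and -0.42, short of it. HSP90AB1, the constitutive form, gave 0.09, 0.00, 0.09, -0.22 and -0.20, and the pseudogene HSP90AA4P, whose sequence resembles that of HSP90AA1, gave -0.38 and -0.26 against siNT. On these 3 genes the arrays of both siRNAs against AURKA were below the other arrays. The other HSP90 pseudogenes differed from siNT by -0.16 to 0.00, with HSP90AA5P equal to it on both arrays. HSPD1 and HSPE1, the HSP60 ring and its HSP10 lid in mitochondria, are transcribed head to head from adjoining starts, and a pair of their promoter windows overlaps by 204 bases. They did not move alike: HSPD1 kept between -0.10 and 0.06 on all arrays, whereas HSPE1 stood at 0.26 with DMSO, 0.12 with MLN8237, -0.42 with siNT, and 0.00 and -0.16 with siAURKA-1 and siAURKA-2. HSPE1 was 1.61-fold lower with siNT than with DMSO (-0.68), with its 3 probe sets in that direction.

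The promoters of members were also read, since heat shock elements are the sites through which HSF1 acts. Their part in the array values was not tested. RefSeq windows of 300 bases (250 before to 50 after a start, GRCh38.p14) were matched by gene number to 60 of the 75 members. They were searched for 3 alternating units, GAANNTTCNNGAA or TTCNNGAANNTTC, which are each other's reverse complements and so cover both strands. A match was present for 7 of the 60 members (11.7%), against 166 of 27305 genes with a window (0.608%). Of the 15 members listed as heat-inducible 6 held one, and of the 45 others with a window 1, DNAJB6. That list also holds HSPA8 and HSP90AB1, described above as constitutive, and both held a match. The shorter form of 2 units, GAANNTTC or TTCNNGAA, which the 3-unit form contains, occurred for 22 of the 60 members (36.7%) and 16.2% of all genes. Of the 15 heat-inducible members 13 held it. A match is a description of letters and not evidence of binding. The windows of 5 members are shown because they hold the HSP90 pair, the constitutive HSC70, HSP60 and the 1 member with a match outside the heat-inducible list, with 3-unit matches in capitals, 5' to 3' on the strand of the gene: HSP90AA1 at chr14:102086995-102087294 (minus strand), HSP90AB1 at chr6:44247693-44247992 (plus strand), HSPA8 at chr11:123062087-123062386 (minus strand), HSPD1 at chr2:197499791-197500090 (minus strand) and DNAJB6 at chr7:157336754-157337053 (plus strand).
HSP90AA1: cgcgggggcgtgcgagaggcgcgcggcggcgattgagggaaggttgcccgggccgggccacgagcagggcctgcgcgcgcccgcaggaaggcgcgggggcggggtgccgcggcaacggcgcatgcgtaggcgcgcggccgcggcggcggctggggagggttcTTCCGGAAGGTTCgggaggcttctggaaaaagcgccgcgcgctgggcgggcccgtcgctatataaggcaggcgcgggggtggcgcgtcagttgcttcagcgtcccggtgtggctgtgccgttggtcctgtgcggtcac
HSP90AB1: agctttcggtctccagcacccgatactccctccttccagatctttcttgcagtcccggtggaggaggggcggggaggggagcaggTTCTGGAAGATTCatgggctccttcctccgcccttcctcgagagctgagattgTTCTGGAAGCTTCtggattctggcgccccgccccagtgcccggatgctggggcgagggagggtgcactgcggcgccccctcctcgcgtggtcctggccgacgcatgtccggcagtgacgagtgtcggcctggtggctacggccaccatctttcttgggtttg
HSPA8: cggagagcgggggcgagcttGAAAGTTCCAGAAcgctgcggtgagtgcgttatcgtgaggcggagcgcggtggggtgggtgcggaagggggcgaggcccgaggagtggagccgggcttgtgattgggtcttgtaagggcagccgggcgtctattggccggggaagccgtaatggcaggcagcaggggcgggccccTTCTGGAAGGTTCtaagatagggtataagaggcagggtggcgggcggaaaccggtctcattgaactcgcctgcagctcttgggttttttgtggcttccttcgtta
HSPD1: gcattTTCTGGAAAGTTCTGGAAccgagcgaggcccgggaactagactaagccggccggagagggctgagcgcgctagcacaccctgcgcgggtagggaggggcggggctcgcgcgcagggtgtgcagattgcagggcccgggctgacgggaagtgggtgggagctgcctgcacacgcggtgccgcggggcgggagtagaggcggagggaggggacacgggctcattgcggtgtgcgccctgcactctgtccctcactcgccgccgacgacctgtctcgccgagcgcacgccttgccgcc
DNAJB6: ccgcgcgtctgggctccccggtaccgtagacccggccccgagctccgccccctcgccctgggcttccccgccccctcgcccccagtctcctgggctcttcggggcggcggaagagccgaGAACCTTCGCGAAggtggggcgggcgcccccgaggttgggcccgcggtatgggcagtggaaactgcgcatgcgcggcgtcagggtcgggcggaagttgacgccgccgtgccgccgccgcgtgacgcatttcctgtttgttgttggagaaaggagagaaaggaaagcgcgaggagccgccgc
HSP90AB1 and HSPA8 hold 2 separate matches each, and the 2 matches of HSPD1 overlap into 1 longer run. The other members with a match were HSPA6 and DNAJA1. The 7 genes did not respond as 1 group. Against DMSO, siAURKA-1 gave differences from -0.63 (HSP90AA1) to 0.28 (HSPA6) with a median of -0.10, and siAURKA-2 from -0.80 (DNAJB6) to 0.28 (HSPA6) with a median of -0.27, and 6 of 7 were below DMSO with either siRNA (38.9% and 38.3% of all genes were). Against siNT the medians were -0.05 and -0.12, with 5 of 7 below siNT for either (42.2% and 42.3% of all genes were).

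Of the 7 small heat shock protein genes, 1 was past 1.5-fold against siNT, HSPB1 with siAURKA-1. HSPB1, encoding HSP27, stood at 0.21 with DMSO, -0.05 with MLN8237, 0.13 with siNT, and -0.71 and 0.00 with siAURKA-1 and siAURKA-2. Only the siAURKA-1 array was far from the rest, 1.79-fold below siNT (-0.84), 1.89-fold below DMSO (-0.92) and 1.64-fold below siAURKA-2 (-0.71), on a single probe set. HSPB8, which works with BAG3 in selective autophagy, gave -0.03, -0.11, 0.00, 0.56 and 0.23, so that siAURKA-1 was short of 1.5-fold against siNT (0.56) and just past it against DMSO (0.59). Its value with siAURKA-1 rests on 1 of 2 probe sets, which was at 1.07 there while the other was at 0.05. HSPB2, HSPB3, HSPB6, HSPB7 and HSPB9, best known from muscle or testis, stayed between -0.21 and 0.18 on every array.

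Type A and type B J-proteins contributed 1 member each to the genes lower with siAURKA-2. DNAJA3, a mitochondrial J-protein, stood at 0.09 with DMSO, 0.00 with MLN8237, 0.18 with siNT, and -0.33 and -0.41 with siAURKA-1 and siAURKA-2, and all 3 probe sets had both siRNAs against AURKA below the other arrays. Its difference from siNT was -0.50 (siAURKA-1) and -0.59 (siAURKA-2), the latter 1.51-fold and just past the size used. Against DMSO the latter was -0.50, short of it. DNAJA1, the abundant partner of HSC70, was level (gene values -0.07 to 0.04), but 2 of its 5 probe sets were at -0.66 and -1.04 on the siNT array alone. DNAJA2 lay between -0.05 and 0.02.

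DNAJB6, a suppressor of protein aggregation, had the widest contrast among type B genes. It stood at 0.05 with DMSO, 0.47 with MLN8237, 0.00 with siNT, and -0.05 and -0.75 with siAURKA-1 and siAURKA-2. The siAURKA-2 array was thus 1.68-fold below siNT (-0.75) and the MLN8237 array 1.33-fold above DMSO (0.42), the furthest any member went with the inhibitor. Of its 4 probe sets 3 shared this pattern and the fourth did not, reading 0.43 with siAURKA-2. With the mean of the probe sets in place of the median the difference between siAURKA-2 and siNT was -0.42. DNAJB14, anchored in the endoplasmic reticulum membrane, was higher with siAURKA-1 alone (0.76, with the other 4 arrays between -0.11 and 0.09), or 1.59-fold above siNT (0.67). Without probe sets that may cross-hybridise this difference was 0.41. DNAJB12, its paralog, gave -0.22, with 6 probe sets in disagreement. DNAJB1, the classical HSP40 induced by heat, stood at 0.22, 0.12, 0.00, -0.03 and -0.13 in the order DMSO, MLN8237, siNT, siAURKA-1 and siAURKA-2. DNAJB4, related to DNAJB1, ran opposite at -0.42, -0.16, 0.13, 0.00 and 0.30, and was 1.64-fold higher with siAURKA-2 than with DMSO (0.72). DNAJB11, the J-protein of the endoplasmic reticulum that serves HSPA5, exceeded siNT by 0.58 for siAURKA-1, just short of 1.5-fold, and by 0.43 for siAURKA-2. Against DMSO the values were 0.26 and 0.11.

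Type C J-proteins, which share little beyond the J domain, held the 2 members furthest from siNT with siAURKA-2, DNAJC13 and DNAJC19. DNAJC13, an endosomal protein of clathrin dynamics read by 1 probe set, stood at 0.00 with DMSO, 0.16 with MLN8237, 0.03 with siNT, and -0.54 and -1.08 with siAURKA-1 and siAURKA-2. It was 2.15-fold below siNT with siAURKA-2 (-1.10) and -0.57 with siAURKA-1, close to 1.5-fold, and the values against DMSO were nearly the same (-1.08 and -0.54). DNAJC2, which forms the ribosome-associated complex with the HSP70 relative HSPA14, was at -0.77 with siAURKA-1 and between -0.05 and 0.01 on the other arrays, 1.71-fold below siNT on a single probe set. HSPA14 itself stood at 0.28, 0.16, 0.00, -0.26 and -0.09.

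DNAJC19, a component of the import motor of the mitochondrial inner membrane, was the member furthest from the rest on the siNT array. It stood at 0.15 with DMSO, -0.04 with MLN8237, -0.79 with siNT, and -0.03 and 0.20 with siAURKA-1 and siAURKA-2, and both probe sets had siNT lowest. Against siNT it was therefore 1.69-fold higher with siAURKA-1 (0.76) and 1.98-fold higher with siAURKA-2 (0.99), whereas against DMSO the differences were -0.18 and 0.05. The direction for siAURKA-1 thus turns with the control. MLN8237 minus siNT for DNAJC19 was 0.74, the 1 member past 1.5-fold in that comparison (1.61% of all genes). DNAJC14 showed a smaller step of the same kind (-0.34 with siNT, 0.00 to 0.08 elsewhere), as did DNAJC25 (-0.27 with siNT, 0.00 to 0.06 elsewhere). DNAJC15, the paralog of DNAJC19, did not, standing at 0.13, 0.01, 0.24, -0.24 and -0.21 in the order DMSO, MLN8237, siNT, siAURKA-1 and siAURKA-2. DNAJC24, which acts in diphthamide synthesis (0.46), DNAJC16 (0.42) and DNAJC30 of mitochondria (0.38) were highest with siAURKA-1 and short of 1.5-fold. The DNAJC16 probe sets disagreed, standing at 0.91, 0.84, 0.00 and 0.00 on the siAURKA-1 array. DNAJC22 ran the other way on the siNT array (0.36) and was -0.54 for siAURKA-2 minus siNT. DNAJC9, a histone chaperone, had gene values between -0.05 and 0.02, but its 4 probe sets disagreed. A single one stood at -0.81 on the siAURKA-1 and -1.29 on the siAURKA-2 array, while the other 3 lay between -0.11 and 0.08 on every array.

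**Figure D3:**
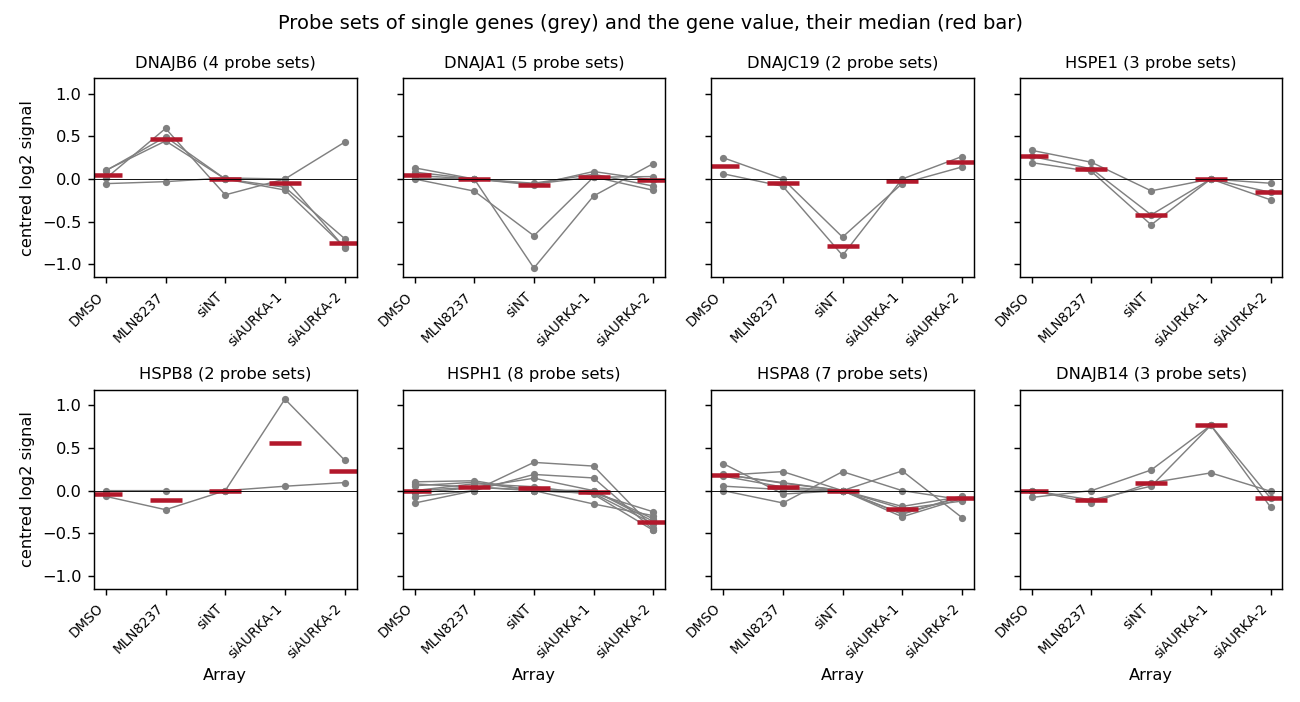
Centred log2 signal of every probe set (grey points joined by lines) and the gene value, their median (red bar), on the 5 arrays for 8 members. For siNT minus DMSO the 3 probe sets of HSPE1 and both of DNAJC19 share the direction of the gene value, as do all 8 of HSPH1 for siAURKA-2 minus siNT, while 1 of 4 for DNAJB6, 1 of 2 for HSPB8 and 2 of 5 for DNAJA1 stand apart.

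The median of the heat-inducible members, a list of 15 genes, differed between the control arrays. The list holds HSPA1A, HSPA1B, HSPA6, HSPA8, HSPA4L, HSPH1, DNAJA1, DNAJB1, DNAJB4, HSPB1, HSPB8, HSP90AA1, HSP90AB1, HSPD1 and HSPE1. HSPA8 and HSP90AB1 are in it although described above as constitutive, so it is not a list of genes expressed only under stress. Against siNT the median of the list was -0.03 (siAURKA-1) and -0.12 (siAURKA-2). Against DMSO it was -0.25 for siAURKA-1 (12 of 15 below DMSO), -0.27 for siAURKA-2 (11 of 15), -0.11 for siNT (9 of 15) and -0.08 for MLN8237 (10 of 15), and the median of all genes was 0.00 each time. All 4 of these comparisons share the DMSO array, and those of the siRNA arrays also include siRNA delivery. Below DMSO by any amount were 38.9% of all genes for siAURKA-1, 38.3% for siAURKA-2, 39.6% for siNT and 46.1% for MLN8237. Of the 75 members these arrays had 44, 48, 36 and 37 below DMSO. On the DMSO array 8 of the 15 had their highest value (HSPA1A, HSPA1B, HSPA8, DNAJA1, DNAJB1, HSPB1, HSP90AA1 and HSPE1), as had 19 of the 75 members (25.3%) and 15.2% of all genes. The excess was not particular to DMSO, as 17 members were highest on the MLN8237 array (22.7%, against 8.55% of all genes). Only 6 members were lowest with MLN8237 (8%, against 19.3% of all genes). The lowest value fell on the siAURKA-1 array for 22 members and on the siAURKA-2 array for 23 (29.3% and 30.7%, against 20.9% and 17.7% of all genes). At 1.5-fold against DMSO, 7 of the 75 members were past the size with siAURKA-1 (3 higher, 4 lower, against 6.84% of all genes) and 7 with siAURKA-2 (2 higher, 5 lower, against 5.21%). Exceptions within the heat-inducible list were DNAJB4, HSPA6 and HSPB8, which lay above DMSO with both siRNAs against AURKA.

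**Figure D4:**
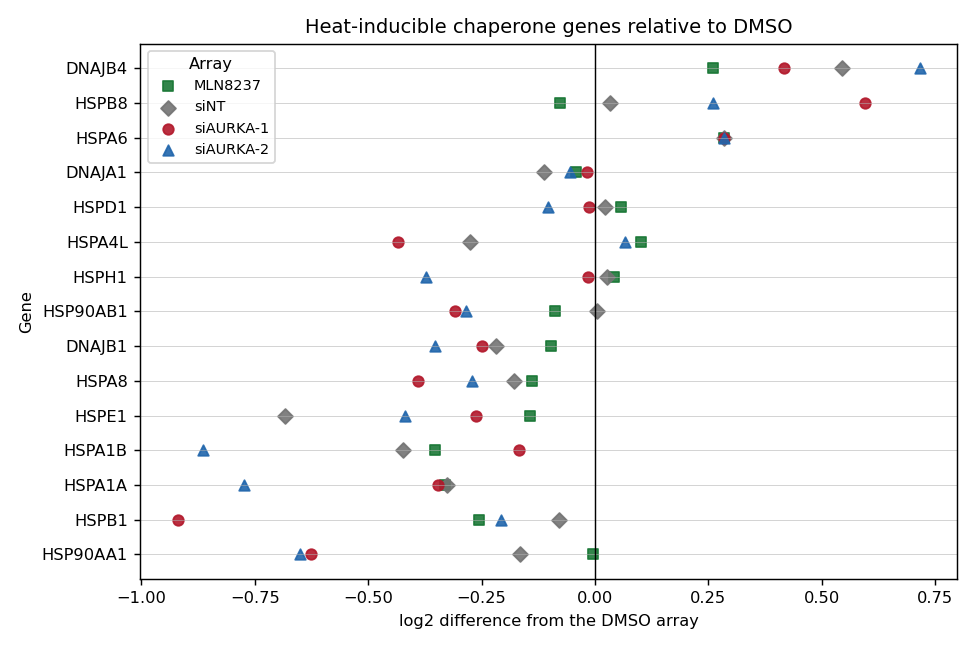
Log2 difference from the DMSO array (horizontal axis) for the 15 heat-inducible members, with 1 symbol for each of the other 4 arrays. HSP90AA1, HSPB1, HSPA1A and HSPA1B lie over 1.5-fold below DMSO with 1 or both siRNAs against AURKA, as HSPE1 does with siNT. DNAJB4 and HSPA6 lie above DMSO on all 4 arrays.

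Partner genes that are not members were read from lists. The list of HSF1 and the co-chaperones of HSP70 and HSP90, which also holds HSF4, HSBP1, CRYAB and SERPINH1, had 26 measured genes. Of these, 0 were at least 1.5-fold higher and 2 lower with siAURKA-1 than with siNT, and 0 and 4 with siAURKA-2. The counts were 0 and 0 with MLN8237 against DMSO, and 1 and 0 with siNT against DMSO. The shares of all genes lower than siNT by this size were 4.48% (siAURKA-1) and 3.11% (siAURKA-2). BAG2, an HSP70 co-chaperone that inhibits the ubiquitin ligase CHIP, was lower with both (-1.20 and -1.13 against siNT, -0.69 and -0.61 against DMSO). CHORDC1, an HSP90 co-chaperone, was lower with siAURKA-1 (-0.84), and CDC37L1 (-1.01), BAG4 (-0.85) and BAG5 (-0.73) with siAURKA-2. For CDC37L1 the siNT array lay 0.77 above DMSO, and siAURKA-2 was -0.24 against DMSO. HSF1 itself gave 0.04 and -0.18 against siNT, and BAG3, a strong heat-inducible gene, 0.11 and -0.08. Against DMSO the list had medians of -0.01 (siAURKA-1) and -0.24 (siAURKA-2).

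Of 14 genes of the cytosolic chaperonin TRiC and its partner prefoldin, only CCT6A was past 1.5-fold against siNT. It was lower for both AURKA siRNAs (-0.91 and -0.89), on a single probe set. Lower than siNT by this size were 4.48% (siAURKA-1) and 3.11% (siAURKA-2) of all genes. The medians of the 14 genes were -0.05 and -0.07. Among the prefoldin subunits PFDN6 was -0.53 with siAURKA-2, PFDN1 was -0.44 and PFDN5 0.38 with siAURKA-1. Among 9 partner genes of mitochondrial chaperones the medians against siNT were -0.26 and -0.23. LONP1, the matrix protease, was -0.83 with siAURKA-1, and CLPX, the unfoldase of the ClpXP protease, was -1.13 with siAURKA-2 but 0.58 with siAURKA-1. TRAP1, the mitochondrial HSP90, was -0.62 with siAURKA-2. For chaperone genes of the endoplasmic reticulum, including the 3 that the member rule leaves out, the 12 genes had medians of 0.13 and 0.23 against siNT and 0.15 and 0.21 against DMSO. With siAURKA-1 0 of them were past 1.5-fold from siNT. With siAURKA-2, HERPUD1 (0.94) and HSPA5 (0.68) were past 1.5-fold above siNT (1.96% of all genes were) and 0 genes below it, while HSP90B1 was at -0.17. For DNAJB9, a target of the unfolded protein response, the siNT array itself lay 0.87 above DMSO, and the AURKA siRNAs 1.37 and 1.21 above DMSO.

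**Figure D5:**
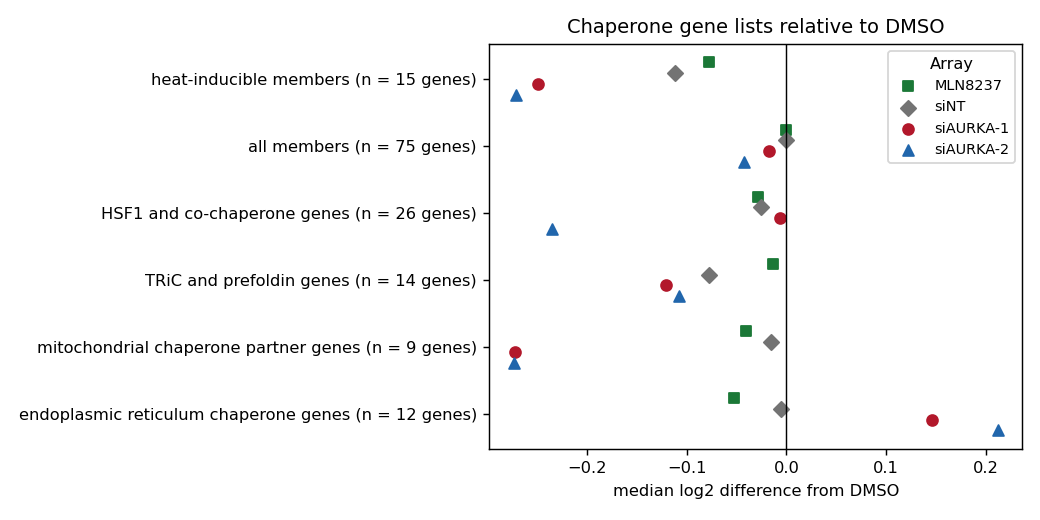
Median log2 difference from the DMSO array over the genes of each list, with 1 symbol for each of the other 4 arrays. The heat-inducible and mitochondrial partner lists lie lowest with the siRNAs against AURKA (-0.25 to -0.27), and the endoplasmic reticulum list lies above 0 with them (0.15 and 0.21).

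Markers of other cell types were also read. The summed centred values of 8 fibroblast markers ran from -0.12 to 0.08 over the arrays, of 7 measured leukocyte markers from -0.08 to 0.24, and of 6 endothelial markers from -0.16 to 0.13. The 5 measured squamous epithelial markers ran from -2.09 (siAURKA-2) to 0.70 (siAURKA-1), with KRT5 at -1.82 on the siAURKA-2 array. Their part in the chaperone values was not tested.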

How the data were processed

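Total RNA of 5 samples, 1 per treatment label, was measured on Affymetrix GeneAtlas arrays. The deposited values are taken as log2 signals. The submitters' processing notes name RMA without a version, and no source states the log base. Each of the 49386 probe sets had a median of 0 across arrays, so the authors' log2 values had been centred. No filter on low values could be used, and all 75 members were kept. Probe sets naming 1 gene (45259) were used, those naming several (1327) or none listed (2800) were not. Symbols came from the platform annotation, updated by Entrez number through RefSeq (GRCh38.p14). A gene's value was the median of its probe sets: 51 members had several (at most 8) and 24 had 1. In 17 to 25 of those 51, depending on the comparison, probe sets lay on both sides of 0.

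Differences are between single arrays, counted at 1.5-fold. No p-value is given. Named genes are AURKA, members at least 1.5-fold apart, the heat-inducible members and up to 4 genes per list furthest from 0 in a comparison. Others named were chosen after their values were seen. Members and lists were chosen with earlier results of these data known. The counting was tested on simulated data. Calculations used Python 3.11.15 and pandas 2.3.3. Of the listed genes HSF2, AHSA1, TTC4, KRT6A, KRT17 and TP63 were not analysed here.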

Additional observations from a re-analysis of the deposited data

Results flagged for a closer look

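In 3 members the siRNAs against AURKA lay on opposite sides of siNT and at least 1.5-fold apart from each other, as did 4.77% of all genes. The difference was not tested, as each siRNA has 1 array, and both comparisons use the same siNT array. DNAJB14 was 0.85 higher with siAURKA-1 than with siAURKA-2 (0.67 and -0.18 against siNT). HSPA1B was 0.70 higher (0.26 and -0.44). HSPA2 was lower with siAURKA-1 (-0.92, from -0.20 and 0.72).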

How the results depend on the processing

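The number of members past the size of a call was recomputed for each comparison. A step of 25% in place of 50% (1.5-fold) gave 21 for siAURKA-1 and 15 for siAURKA-2 (both minus siNT), 3 for MLN8237 minus DMSO, 10 for siNT minus DMSO and 15 between the siRNAs, where 17.5%, 14.6%, 3.02%, 8.54% and 18.1% of all genes were past it. A ratio of 2-fold gave 0, 1, 0, 0 and 0. With the probe set of largest spread for each gene it was 14 (siAURKA-1), 13 (siAURKA-2), 4 (siNT minus DMSO) and 12 (between the siRNAs), a choice that favours large values by construction. Without probe sets that may cross-hybridise, 66 members remained, and siAURKA-1 minus siNT and siNT minus DMSO gave 1 each. Shares of all genes were not computed for either of these settings, so their counts are not results about the members. With the other control array siAURKA-1 gave 7 (6.84% of all genes) and MLN8237 gave 1 (1.61%). Other counts stayed within 1.5 times, and no median of the members moved by over 0.1 (log2) under any setting run. Of the 9 calls against siNT, 4 were lost with DMSO as control (DNAJA3 and HSPA2 for siAURKA-2, DNAJC19 for both), and the same number with the mean of both controls. Of all 17 calls in the 5 comparisons, 3 were lost with the mean of probe sets (DNAJB14 once, DNAJB6 in a pair of comparisons). DNAJC19 with siAURKA-1 reversed to -0.18 against DMSO, by the position of the siNT array. Values of AURKA and of the called or heat-inducible members moved by over 25% in 40 recomputations and by less in 642. Some of the latter could not move, such as genes of 1 probe set when probe sets were joined by their mean. Centring each array on its median left the called values unchanged. These numbers therefore do not measure how stable the values are. The causes of the moves were not tested. Leaving out pseudogenes and adding probe sets of several genes were chosen after seeing the data. The planned filter on low values was not run, since the values carry no level. No paired analysis was possible because each treatment has 1 array.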

Other observations

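Probe sets that name a member together with another gene were not used for the gene values. The probe set shared by DNAJC9 and MRPS16 stood at 0.26 with DMSO, 0.17 with MLN8237, 0.00 with siNT, and -0.93 and -1.19 with siAURKA-1 and siAURKA-2, close to 1 of the 4 probe sets that name DNAJC9 alone. The probe set shared by HSP90AA1 with the pseudogenes HSP90AA4P and HSP90AA2P gave -0.43 and -0.29 against siNT, and the one shared by HSP90AB1 and HSP90AB3P gave -0.32 and -0.29. The probe set shared by DNAJB6 and TMEM135 was 0.40 above siNT with siAURKA-2, the direction of the 1 DNAJB6 probe set that stood apart.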
